A study of Mus musculus with 24 samples.

Results

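The comparison described here is that of 12 duodenal RNA libraries from mice injected with the hormone 1,25-dihydroxyvitamin D3 (1,25D) with 12 from mice injected with vehicle. It joins the mice of 2 diets, so it takes in all 24 libraries of the series, and the diet enters as an additive term. The libraries were chosen by their labels alone, with 1,25 or Veh in the title, and no measured value was used. All mice were male, 8 weeks old and lacked Cyp27b1, the enzyme that makes 1,25D from its precursor, and all were fed diets free of vitamin D from weaning at 3 weeks. Calcium and phosphorus made up 0.47% and 0.3% of the normal diet, and 2% and 1.25% of the rescue diet, which also held 20% lactose. Each mouse was injected once, with vehicle or with 1,25D at 2 ng for each g it weighed, 6 h before the duodenum was taken, which gave 4 groups of 6 libraries: normal vehicle, normal 1,25D, rescue vehicle and rescue 1,25D. Neither a wild type nor an earlier or later time point is part of the comparison, and every control mouse lacked its own 1,25D. The labels name 12 mice per diet and 8 injected per group without saying which animal each library came from, so the p-values rest on the spread between libraries, which may be technical in part.

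1,25D acts through the vitamin D receptor, a nuclear receptor that pairs with a retinoid X receptor and binds DNA, most often at 2 half-sites of 6 bases set 3 bases apart. In the duodenum it is best known for raising active calcium absorption: calcium enters the enterocyte through the channel Trpv6, crosses it bound to calbindin-D9k, the product of S100g, and leaves through the pump encoded by Atp2b1. The hormone also switches on its own breakdown through Cyp24a1.

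Values are RPKM, reads scaled to gene length and library size. Summed RPKM lay between 541395 and 697913 per library, absolute depth is unknown and relative depth, a loose estimate from the steps of low values, ran from 0.631 to 1.627. Cyp27b1 itself did not exceed 0.452 RPKM in any vehicle library or 0.32 RPKM in any 1,25D library and did not pass the filter on low values. Markers of the small intestine were abundant, with median vehicle levels of 1357 RPKM for Apoa4, 783 for Sis and 424 for Fabp1, while ileal Fabp6 stayed at or below 0.399 RPKM and colonic Hoxb13 at or below 0.388 RPKM. 1 library stood apart. In normal vehicle replicate 6, 29 genes of the exocrine pancreas made up 17.68% of the summed RPKM, against a median of 1.17% over the 12 vehicle and 0.473% over the 12 1,25D libraries, and in that library 46.8% of all tested genes had their lowest vehicle value. Their part in the results was not tested beyond the fits without that library and with a pancreas covariate given below.

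A gene was called where limma gave a Benjamini-Hochberg adjusted p under 0.05 over the 20006 genes with 0.5 RPKM or more in at least 6 libraries. Fold changes were computed on log2(RPKM + 0.5), so those of low genes are too small. Over both diets 230 genes were called, 1.15% of those tested. Of these, 212 were higher after 1,25D (1.06%) and 18 were lower (0.09%). By 2-fold or more, 41 genes rose and 4 fell, while 87 of the called genes moved by less than 1.5-fold. The median log2 fold change was 0.68 over the genes that rose, -0.57 over those that fell and 0.07 over all genes. Before adjustment 1921 genes had a p under 0.05, 1456 of them higher and 465 lower, where 1000 are due by chance. Pooling the diets narrowed the standard error of the log2 fold change from a median of 0.20 on 1 diet to 0.14. The calls were spread unevenly over the diets: the normal diet libraries alone gave 433 calls, 419 of them higher (2.16% in all), and the rescue diet libraries alone gave 11, all higher (0.055%). The balance of directions depended on scaling and on 1 library. Quantile normalization, which moved the median of all genes to -0.01, gave 223 genes higher (1.11%) and 127 lower (0.635%), and kept 189 of the 212 rises and all 18 falls. Median-of-ratios scaling gave 198 higher and 112 lower. Without normal vehicle replicate 6 there were 216 genes higher and 99 lower, and without rescue 1,25D replicate 5 there were 301 and 32. Without normal 1,25D replicate 2, 10 genes were lower.

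**Figure D1:**
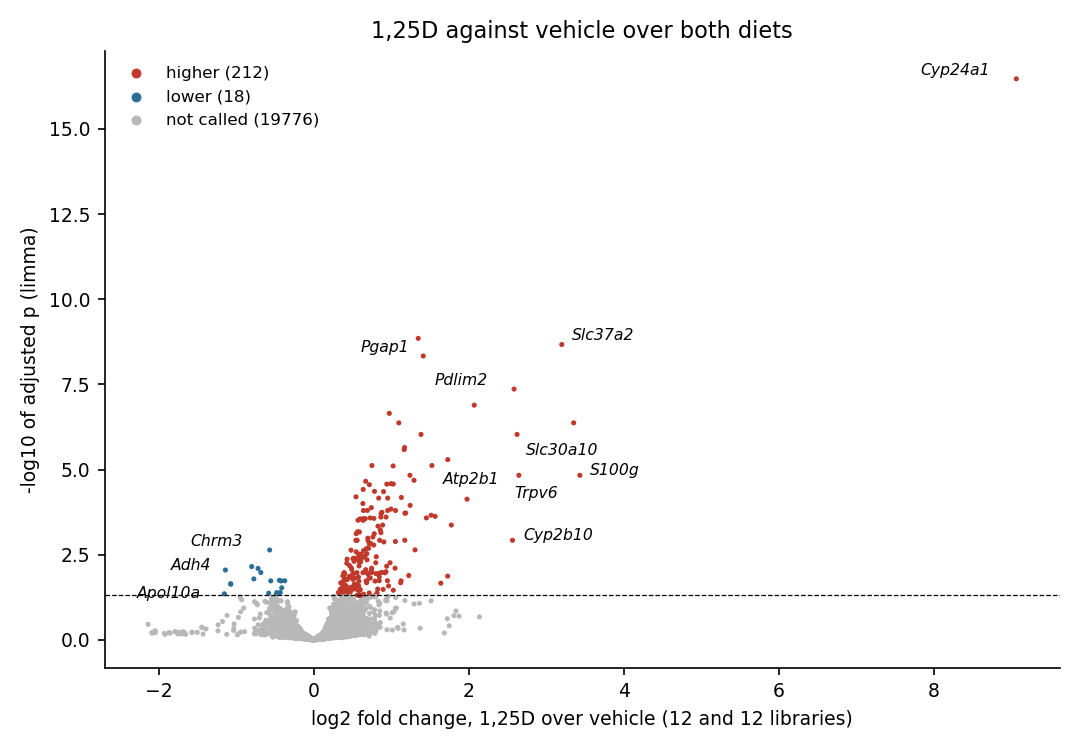
Each point is 1 of the 20006 genes tested, by its log2 fold change after 1,25D (x axis) and the negative log10 of its adjusted p (y axis), with the dashed line at an adjusted p of 0.05. Cyp24a1 lies far from all other genes at a log2 fold change of 9.07, and the 212 genes that rose outnumber the 18 that fell.

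Hormone breakdown gave the largest response. Cyp24a1, the hydroxylase that starts the inactivation of 1,25D, ran from 0.016 to 4.03 RPKM in the vehicle libraries (median 0.4345) and from 92.1 to 1036 RPKM after 1,25D (median 574). The log2 fold change was 9.07 (SE 0.30, adjusted p = 3.37e-17), a rise of 537-fold, and it was 9.14 on the normal diet and 9.0 on the rescue diet. Every 1,25D library lay far above the highest vehicle library, and the lowest of them was rescue 1,25D replicate 5. That library held the lowest 1,25D value for 109 of the 212 genes that rose (51.4%), against 20.1% of all genes tested. None of the other 14 tested members of the vitamin D list, among them receptors and coregulators, passed the limma test or had an unadjusted p under 0.05 (0 genes). Of all genes, 7.28% had such a p and were higher, and 2.32% had one and were lower. The list's median log2 fold change was 0.04 (-0.04 after quantile normalization) beside 0.07 over all genes. Vdr, the receptor, ran from 34.7 to 104 RPKM under vehicle (median 73.0) and from 42.1 to 96.4 RPKM after 1,25D (median 61.6), at a log2 fold change of -0.06 (95% interval -0.43 to 0.31). Its partner Rxra had a log2 fold change of -0.12 (95% interval -0.33 to 0.09). For both receptors the ranges of the 2 sides overlapped almost wholly.

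Calcium transport was the next group. Of 13 tested members of its list, 4 rose, none fell, and the median was 0.19. S100g, the cytosolic calcium carrier, ran from 13.6 to 774 RPKM under vehicle (median 146) and from 522 to 3084 RPKM after 1,25D (median 1902). It rose 10.8-fold (log2 3.44, SE 0.42, adjusted p = 1.48e-05), and only rescue 1,25D replicate 5 fell within the vehicle range. Its lowest vehicle value, in normal vehicle replicate 1, lay well under the other 11. Trpv6, the apical calcium channel, was nearly silent under vehicle, from 0.064 to 0.612 RPKM (median 0.151), and ran from 0.417 to 14.6 RPKM after 1,25D (median 3.49). The rise was 6.27-fold on this scale (log2 2.65, SE 0.33, adjusted p = 1.48e-05), which the added 0.5 RPKM understates, and again only rescue 1,25D replicate 5 reached into the vehicle range. Atp2b1, the basolateral calcium pump, ran from 51.5 to 172 RPKM under vehicle (median 84.9) and from 127 to 363 RPKM after 1,25D (median 273). Its log2 fold change was 1.53 (SE 0.18, adjusted p = 7.65e-06), and 11 of 12 1,25D libraries lay above all vehicle libraries.

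The paracellular side of calcium transport was represented by claudins. Cldn2, a claudin that forms cation pores, ran from 48.9 to 191 RPKM under vehicle (median 112) and from 165 to 384 RPKM after 1,25D (median 279). It rose 2.37-fold (log2 1.25, SE 0.18, adjusted p = 0.000113), with 11 of 12 1,25D libraries above all vehicle libraries. Cldn15, another pore-forming claudin, had a log2 fold change of 0.30 (SE 0.12) and did not pass the test (adjusted p = 0.315). Within the list of 19 tight junction genes 2 were called, Cldn2 and Cdh17, an intestinal cadherin, at a list median of 0.07 (-0.03 after quantile normalization). Cdh17 ran from 188 to 440 RPKM under vehicle and from 260 to 656 RPKM after 1,25D (log2 0.59, SE 0.15, adjusted p = 0.0498). This call was lost in 19 of 24 fits without 1 library, with the highest adjusted p of 0.101 without normal 1,25D replicate 3, and with a pancreas covariate (0.179, at a log2 fold change of 0.48).

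**Figure D2:**
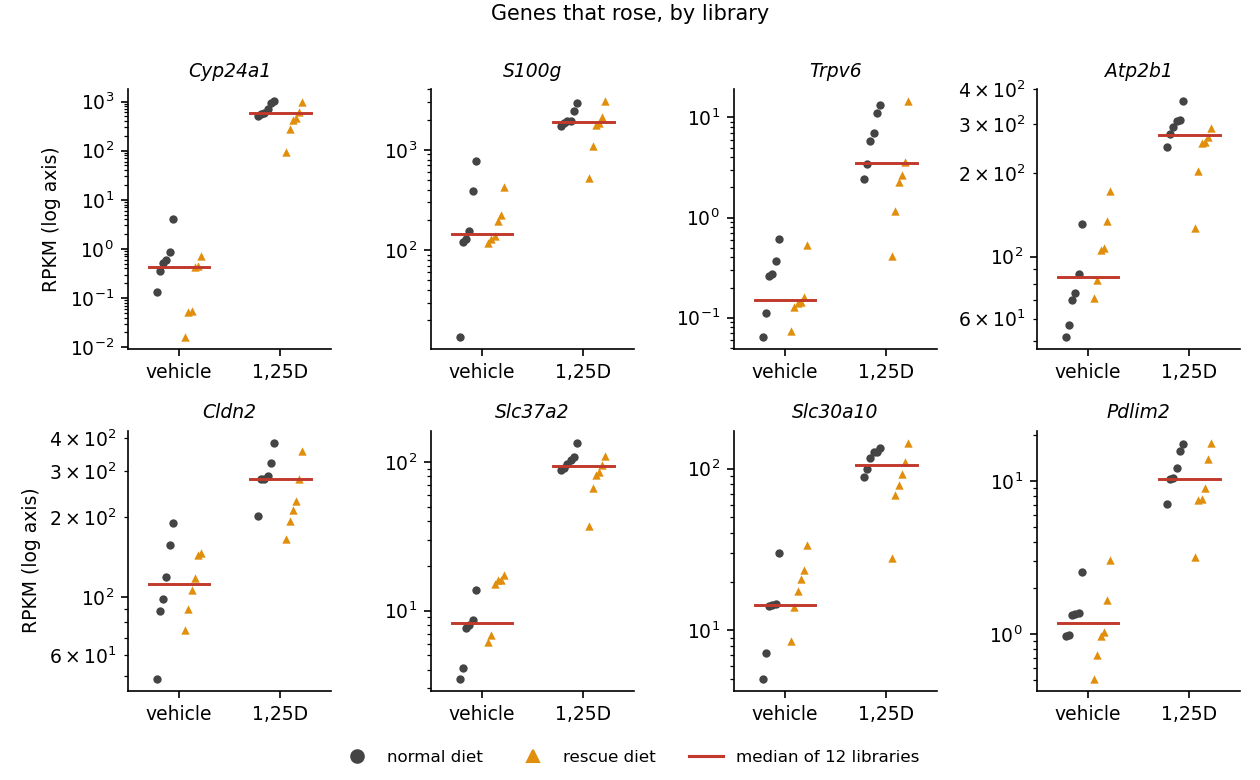
RPKM on a log axis for 8 genes that rose, with each point 1 library, circles for the normal and triangles for the rescue diet, and a red line at the median of the 12 libraries of a side. The sides do not overlap for Cyp24a1, Slc37a2 and Pdlim2, and for the other 5 genes a single 1,25D library, rescue 1,25D replicate 5, reaches into the vehicle range.

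Promoter sequence is shown for 3 of these strongly induced genes, since the receptor recognises 6-base half-sites and a reader can see where the proximal promoter holds one. The 250 bases before the start of each gene are printed from RefSeq, build GRCm38.p6, 5′ to 3′ along the gene. Capitals mark the half-sites searched for on both strands (AGGTCA as the first, AGTTCA as the second, GGGTCA as the third and GGTTCA as the fourth, each also as its reverse complement). S100g (chrX:162964600-162964849, minus strand) holds 3, which begin 220, 149 and 107 bases before the start. Trpv6 (chr6:41636406-41636655, minus strand) holds 2, at 191 and 165 bases. Slc37a2, a sugar phosphate exchanger (chr9:37255739-37255988, minus strand), holds 1, at 216 bases.
S100g: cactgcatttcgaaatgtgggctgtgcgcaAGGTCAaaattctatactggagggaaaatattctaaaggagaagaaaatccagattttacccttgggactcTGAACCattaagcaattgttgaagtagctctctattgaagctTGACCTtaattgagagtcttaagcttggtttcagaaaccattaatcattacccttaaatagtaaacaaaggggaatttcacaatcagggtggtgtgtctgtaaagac
Trpv6: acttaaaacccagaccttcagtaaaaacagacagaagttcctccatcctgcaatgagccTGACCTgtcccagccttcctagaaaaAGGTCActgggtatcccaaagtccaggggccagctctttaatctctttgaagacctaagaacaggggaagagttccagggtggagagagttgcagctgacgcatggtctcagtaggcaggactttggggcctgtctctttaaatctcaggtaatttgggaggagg
Slc37a2: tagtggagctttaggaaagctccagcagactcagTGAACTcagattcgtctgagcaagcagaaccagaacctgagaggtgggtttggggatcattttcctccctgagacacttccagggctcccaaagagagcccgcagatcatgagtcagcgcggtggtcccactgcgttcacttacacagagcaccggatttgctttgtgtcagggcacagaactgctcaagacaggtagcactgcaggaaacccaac
Promoters were found for 138 of the 212 genes that rose. A half-site stood in 54 of them (39.1%), beside 38.7% of the 12551 tested genes with a promoter, so the share was close to the background. Of the 18 genes that fell, 10 had a promoter, and 7 of these held a half-site (70.0%). Any 2 of these half-sites in the same direction with 3 bases between them occurred in 0 of the 138 promoters and in 5 of the 12551 (0.04%). A match is a description of letters in this window and not a binding site.

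Among metal transporters the zinc and manganese list, the longest, had the most calls by number. Of 25 tested members 7 rose and none fell, at a median of 0.13 (0.05 after quantile normalization). Beside this, 4 of 13 calcium transport genes and 1.06% of all genes were called higher. Slc30a10, which exports manganese from cells, ran from 5.01 to 33.5 RPKM under vehicle (median 14.4) and from 27.9 to 145 RPKM after 1,25D (median 105). It rose 6.17-fold (log2 2.63, SE 0.27, adjusted p = 9.33e-07), and 11 of 12 1,25D libraries lay above all vehicle libraries. Slc30a1, the zinc exporter of the plasma membrane, ran from 10.4 to 19.8 RPKM under vehicle (median 15.9) and from 21.9 to 42.8 RPKM after 1,25D (median 36.0). It rose 2.14-fold (log2 1.10, SE 0.11, adjusted p = 4.27e-07) with no overlap between the sides. Slc30a2, which loads zinc into vesicles, moved from a median of 5.01 to one of 17.3 RPKM (log2 1.57, SE 0.24, adjusted p = 0.000237).

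4 more zinc carriers rose by less. The log2 fold change was 0.88 for Slc39a8 (SE 0.19), a zinc and manganese importer, 0.69 for Slc39a10 (SE 0.13), a zinc importer, 0.56 for Slc30a5 (SE 0.10), a transporter of the secretory pathway, and 0.35 for Slc30a9 (SE 0.08). Their adjusted p-values ran from 0.0012 to 0.0213. Slc39a8 and Slc39a10 had nearly the same effect on either diet, 0.84 and 0.92 for the first and 0.70 and 0.68 for the second on the normal and rescue diet. The call of Slc30a9 was lost without normal 1,25D replicate 3 (adjusted p = 0.0517), with an enterocyte covariate (0.0519), with a pancreas covariate (0.0965, at a log2 fold change of 0.29) and on the normal diet alone (0.0551). Slc39a4, the apical zinc importer, had a log2 fold change of 0.85 (SE 0.24) and did not pass the test (adjusted p = 0.0837), though without rescue 1,25D replicate 5 its adjusted p was 0.00231. The metal-binding metallothioneins Mt1 and Mt2 were not called, at log2 fold changes of -0.08 and -1.03.

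Magnesium transport had 2 calls among 10 tested members, both higher and of the Cnnm family of magnesium carriers, beside 1.06% of all genes called higher. The median of the list was 0.06, where that of all genes was 0.07. Cnnm1, a low gene, ran from 0.58 to 1.39 RPKM under vehicle and from 1.01 to 2.41 RPKM after 1,25D (log2 0.83, SE 0.13, adjusted p = 0.00046). Cnnm2 ran from 1.35 to 3.87 and from 1.68 to 5.46 RPKM (log2 0.72, SE 0.16, adjusted p = 0.0154). By limma no iron or copper gene was called among 22 tested, at a median of 0.17 (0.09 after quantile normalization), though 7 of them had an unadjusted p under 0.05 and all 7 were higher, beside 7.28% of all genes. Heph, the copper oxidase that helps iron leave the enterocyte, had a log2 fold change of 0.72 (SE 0.23) at an adjusted p of 0.169, Slc40a1, the iron exporter, 0.64 (SE 0.21, adjusted p = 0.184), and Ireb2, an iron sensor, 0.50 (SE 0.13, adjusted p = 0.0718). Left-out libraries moved these calls: Heph passed without rescue 1,25D replicate 5 (adjusted p = 0.0161), Slc40a1 without rescue vehicle replicate 2 (0.0461), and Ireb2 in 3 of 24 such fits, with 0.0203 without rescue 1,25D replicate 5.

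Genes of phosphate handling rose in part. Slc37a2, an exchanger of sugar phosphate and phosphate, ran from 3.48 to 17.3 RPKM under vehicle (median 8.30) and from 36.9 to 135 RPKM after 1,25D (median 93.5). It rose 9.21-fold (log2 3.20, SE 0.24, adjusted p = 2.14e-09) with no overlap, and the other 3 members of its family, Slc37a1, Slc37a3 and Slc37a4, had log2 fold changes of -0.04, -0.06 and 0.11. The list of phosphate genes and alkaline phosphatases had 2 calls among 9 tested members, at a median of 0.27 (0.16 after quantile normalization). Akp3, an alkaline phosphatase of the duodenum, ran from 31.8 to 535 RPKM under vehicle (median 213) and from 160.5 to 924 RPKM after 1,25D (median 671), with a log2 fold change of 1.73 (SE 0.38) at an adjusted p of 0.0135. Its neighbour in sequence Alpi, the intestinal alkaline phosphatase, ran from 69.6 to 449 RPKM under vehicle and from 149 to 558 RPKM after 1,25D, and it rose too (log2 1.03, SE 0.25, adjusted p = 0.0351). Both genes are alike enough for reads to be assigned to either, which makes their separate values uncertain. The call of Alpi was lost in 13 of 24 fits without 1 library, at most 0.0742 without normal 1,25D replicate 2. A pancreas covariate ended both calls, at adjusted p-values of 0.057 for Akp3 and 0.122 for Alpi, with log2 fold changes of 1.61 and 0.95. Slc9a3r1, a scaffold of apical transporters, was not called (log2 0.68, SE 0.19, adjusted p = 0.0757), although without rescue 1,25D replicate 5 its adjusted p was 0.00486.

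Enzymes that clear foreign compounds gave 2 calls among 39 tested genes, at a median of 0.29 that joined 0.84 on the normal diet and -0.19 on the rescue diet. Cyp2b10, a cytochrome P450 known for its induction by drugs, ran from 1.01 to 13.8 RPKM under vehicle (median 5.88) and from 4.09 to 117 RPKM after 1,25D (median 36.8). It rose 5.93-fold (log2 2.57, SE 0.44, adjusted p = 0.0012), and 10 of 12 1,25D libraries lay above all vehicle libraries. Gstm3, a glutathione transferase, moved from a median of 11.4 to one of 38.6 RPKM (log2 1.98, SE 0.27, adjusted p = 7.43e-05), and 10 of 12 1,25D libraries lay above all vehicle libraries. Both belong to families of similar genes, between which reads may be split. Cyp2c66 was not called (log2 0.93, SE 0.25, adjusted p = 0.0709), but was called without rescue 1,25D replicate 5 (0.0195) and in 1 further such fit.

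In 23 genes, 0.115% of those tested, all 12 1,25D libraries lay above all 12 vehicle libraries, and in no gene (0%) did all lie below. All 23 were called. Besides Cyp24a1, Slc37a2, Slc30a1 and Pdlim2 they include regulators of transcription, membrane proteins and enzymes. Pdlim2, a PDZ and LIM domain protein, ran from 0.511 to 3.06 RPKM under vehicle (median 1.18) and from 3.20 to 17.9 RPKM after 1,25D (median 10.4), a rise of 6.01-fold (log2 2.59, SE 0.22, adjusted p = 4.35e-08). Pgap1, which trims the lipid anchor of GPI-linked proteins, ran from 2.27 to 5.59 and from 11.2 to 17.3 RPKM (log2 1.42 with an SE of 0.11, adjusted p = 4.64e-09). The gap between its sides, as a ratio of the lowest 1,25D to the highest vehicle library, was exceeded among the 23 genes by Cyp24a1 and Slc37a2 alone.

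Transcription regulators in this set were Bach1, a heme-sensing repressor, Tle3, a corepressor, Suz12, a subunit of the Polycomb repressive complex, and Zhx2, a homeobox and zinc finger factor. Bach1 ran from 25.3 to 48.6 RPKM under vehicle and from 56.9 to 107 RPKM after 1,25D (log2 1.17, SE 0.13, adjusted p = 2.26e-06). Suz12 ran from 20.5 to 58.2 and from 60.4 to 109 RPKM (log2 0.70, SE 0.12, adjusted p = 0.00122), with its lowest vehicle value in normal vehicle replicate 6. Tle3 had a log2 fold change of 0.79 (SE 0.10) and Zhx2 one of 0.64 (SE 0.08).

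The remaining members of the set were Krt7, a keratin of simple epithelia (log2 1.24, SE 0.15), Ccdc134 (1.39, SE 0.14) and Grin1, a glutamate receptor subunit (1.17, SE 0.13), which was low at 0.266 to 1.00 RPKM under vehicle and 1.35 to 3.11 RPKM after 1,25D. Smaller changes came from Pfdn4, a chaperone subunit (0.90), Mctp2, a C2 domain protein (0.94), Rnf149, a ubiquitin ligase (0.75), Myo19, a mitochondrial myosin (0.69), Ate1, an arginyl transferase (0.67), Bzw1 (0.64), Impa1, an inositol phosphatase (0.55), and Arfgef2, an exchange factor for Arf GTPases (0.55). The set also holds LOC100504348, 5031439G07Rik and 9130004J05Rik, which the files name only by such symbols. So a change of less than 1.5-fold, as in Impa1 and Arfgef2, could leave the sides without overlap where the spread between libraries was small. All 23 were called in each of the 24 fits without 1 library.

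Further large rises came from genes of other kinds. Lrrc26, an auxiliary subunit of large potassium channels, ran from 0.927 to 6.11 RPKM under vehicle (median 3.31) and from 5.80 to 17.3 RPKM after 1,25D (median 12.1), with a log2 fold change of 1.73 (SE 0.20) at an adjusted p of 5.12e-06. Gdpd2, a glycerophosphodiesterase, moved from a median of 1.98 to one of 6.64 RPKM (log2 1.52, SE 0.23, adjusted p = 0.00022). Wfdc16, a small secreted-type protein, moved from a median of 0.272 RPKM, with 2 vehicle libraries listed at 0, to one of 2.23 RPKM (log2 1.78, SE 0.28, adjusted p = 0.000428).

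The epidermal growth factor family was represented by 2 ligands. Areg, amphiregulin, ran from 0.273 to 16.6 RPKM under vehicle (median 1.25) and from 1.86 to 12.6 RPKM after 1,25D (median 6.02), so that no 1,25D library exceeded the highest vehicle library, rescue vehicle replicate 2 (log2 1.64, SE 0.38, adjusted p = 0.0218). Ereg, epiregulin, named here after its values were seen, moved from a median of 5.56 to one of 14.6 RPKM (log2 1.12, SE 0.26, adjusted p = 0.0211). Both calls held in every fit without 1 library and were lost with a pancreas covariate, at adjusted p-values of 0.0605 and 0.0539, while the log2 fold changes there were 1.63 for Areg and 1.13 for Ereg. Other settings that ended them were an enterocyte covariate for Areg (0.0618) and, for both, leaving out normal vehicle replicate 6 with rescue 1,25D replicate 4 (0.0553 and 0.0614). Gm2061, a predicted gene with the third largest rise, went from a median of 2.47 to one of 36.9 RPKM (log2 3.36, SE 0.33), and its overlap with annotated genes was not examined.

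Of the genes that rose, the most abundant included, besides those above, Idh1, the cytosolic isocitrate dehydrogenase. Idh1 ran from 92.8 to 192 RPKM under vehicle (median 164) and from 112 to 454 RPKM after 1,25D (median 306), a log2 fold change of 0.94 (SE 0.19) at an adjusted p of 0.00691. Taking only the highest entry of each symbol instead of their sum ended the call of Idh1 (adjusted p = 0.419). Among nutrient genes 1 of 37 lipid genes was called, Pparg, a nuclear receptor for fatty acids (log2 0.73, SE 0.16, adjusted p = 0.0152, and 0.0618 after quantile normalization), and 1 of 24 peptide uptake genes, Mep1a, a brush border protease (log2 0.93, SE 0.20, adjusted p = 0.01, and 0.0514 with a pancreas covariate, at a log2 fold change of 0.80). The call of Pparg was also lost with the highest entry of each symbol (adjusted p = 0.144) and with median-of-ratios scaling (0.072). A pancreas covariate ended it too (0.0673, at a log2 fold change of 0.66). By limma none of 23 carbohydrate genes and none of 18 brush border genes passed, where 5 and 3 had an unadjusted p under 0.05 and were higher, again beside 7.28% of all genes.

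2 of 22 intestinal transcription factors rose, where 1.06% of all genes did. The median of the list was 0.06 (-0.01 after quantile normalization) beside 0.07 over all genes. Pdx1, which is known for its role in duodenum and pancreas, ran from 15.4 to 33.6 RPKM under vehicle (median 24.5) and from 27.9 to 58.8 RPKM after 1,25D (median 42.7), with a log2 fold change of 0.87 (SE 0.13) at an adjusted p of 0.000199. Maf, a leucine zipper factor, had one of 0.93 (SE 0.14, adjusted p = 0.000249). By limma neither the 17 clock genes nor the 21 immediate early genes gave a call, although 4 of the former and 5 of the latter had an unadjusted p under 0.05 and were higher, as were 7.28% of all genes. Cebpd, a leucine zipper factor known from acute responses, came closest to the threshold, with log2 fold changes of 0.96 over both diets, 1.02 on the normal diet and 0.90 on the rescue diet (adjusted p = 0.0531). It was called in 7 of 24 fits without 1 library, with 0.0152 without normal vehicle replicate 4, and after quantile normalization (0.0464).

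Genes of sterol and fatty acid synthesis lay mostly on the higher side with small changes. Of 28 tested members 27 had a fold change above 0, where 65.8% of all genes did, 11 had an unadjusted p under 0.05 and were higher (7.28% of all genes), and the median was 0.30 (0.23 after quantile normalization). 2 were called, both higher. Of these Insig2, which retains the sterol sensor in the endoplasmic reticulum, moved by 0.35 (SE 0.08, adjusted p = 0.0325). The call of Insig2 was lost in 11 of 24 fits without 1 library, at most 0.071 without rescue 1,25D replicate 3.

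A fit of all 24 libraries with 1 mean per group gave an effect on each diet. The pooled fit called 50 genes that this fit called on neither diet, 38 higher and 12 lower. Among those that rose, Prelp, a leucine-rich matrix protein, had log2 fold changes of 0.95 (SE 0.21) over both diets, 1.01 on the normal diet and 0.90 on the rescue diet. In a separate limma fit of the normal diet libraries alone, Prelp was called (adjusted p = 0.0228). Prkar2a, a regulatory subunit of protein kinase A, moved by 0.44 (SE 0.10; 0.40 and 0.47 by diet). Inpp5j, an inositol phosphatase, moved by 0.75 (SE 0.16; 0.68 and 0.82), Aplp1, of the amyloid precursor family, by 0.67 (SE 0.14; 0.75 and 0.60), and Arfgef1, an exchange factor for Arf GTPases, by 0.40 (SE 0.08; 0.43 and 0.36). Mobkl1a, a Mob kinase activator, moved by 0.38 (SE 0.08; 0.30 and 0.46). In each of these 6 genes the effect on the rescue diet was at least 0.36, and adjusted p over both diets ran from 0.00874 to 0.0184. Genes with a large effect on 1 diet could be called there, so this choice of genes favours like effects on both. Quantile normalization ended the call of Aplp1 (adjusted p = 0.0563), and a pancreas covariate that of Prkar2a (0.0649, at a log2 fold change of 0.41).

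Of the 18 genes that fell, 4 did so by 2-fold or more, and in none did the sides separate fully. Adh4, an alcohol dehydrogenase that can oxidise retinol, ran from 2.07 to 9.56 RPKM under vehicle (median 5.63) and from 0.438 to 5.15 RPKM after 1,25D (median 2.21). It fell 2.20-fold (log2 -1.14, SE 0.24, adjusted p = 0.00895), and 5 of 12 1,25D libraries lay below all vehicle libraries. Lrat, which esterifies retinol for storage, ran from 8.90 to 20.2 RPKM under vehicle (median 15.7) and from 7.57 to 14.1 RPKM after 1,25D (median 9.92). Its log2 fold change was -0.48 (SE 0.12, adjusted p = 0.0496), a call lost in 17 of 24 fits without 1 library, at most 0.0991 without rescue vehicle replicate 5. In the retinoid list of 17 tested genes Lrat was the 1 that fell, and Rdh10, a retinol dehydrogenase, the 1 that rose (log2 0.58, SE 0.11, adjusted p = 0.00313). The median of that list was 0.01 (-0.08 after quantile normalization).

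Aqp4, a water channel, ran from 7.45 to 28.1 RPKM under vehicle (median 14.6) and from 4.28 to 17.3 RPKM after 1,25D (median 7.90), a log2 fold change of -0.77 (SE 0.17) at an adjusted p of 0.0163. It was the 1 call among 26 ion and water transport genes. Chrm3, a muscarinic acetylcholine receptor, ran from 2.01 to 3.43 and from 1.20 to 2.40 RPKM (log2 -0.57, SE 0.10, adjusted p = 0.00231), and 10 of 12 1,25D libraries lay below all vehicle libraries, the most among the fallers named here. Nrn1, neuritin, moved from a median of 5.04 to one of 2.60 RPKM (log2 -0.80, SE 0.16, adjusted p = 0.00709). Gpr133, an adhesion receptor, moved from a median of 1.37 to one of 0.581 RPKM (log2 -0.72, SE 0.15, adjusted p = 0.00802). Baiap2l2, which bends membranes, and Ntn4, a netrin, had log2 fold changes of -0.58 and -0.48, with calls lost in 20 and 15 of 24 fits without 1 library, up to adjusted p-values of 0.0872 without rescue 1,25D replicate 3 and 0.0889 without normal 1,25D replicate 6.

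**Figure D3:**
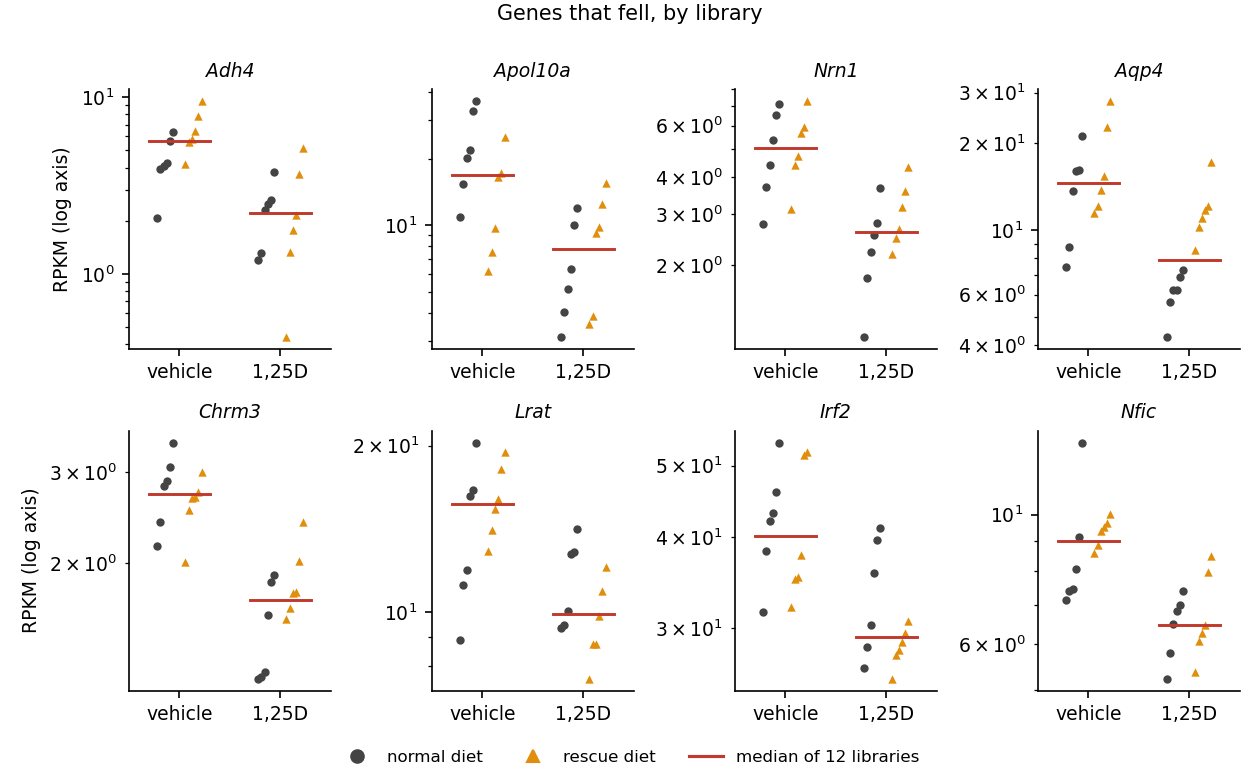
RPKM on a log axis for 8 genes that fell, with each point 1 library, circles for the normal and triangles for the rescue diet, and a red line at the median of the 12 libraries of a side. In all 8 genes the ranges of the sides overlap, least in Chrm3.

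Nfic, a nuclear factor, had a log2 fold change of -0.42 (SE 0.09) at an adjusted p of 0.0187, and Irf2, an interferon regulatory factor, one of -0.41 (SE 0.10, adjusted p = 0.0298). The call of Irf2 was lost in 9 of 24 fits without 1 library, at most 0.0668 without normal 1,25D replicate 5. Apol10a, of the apolipoprotein L family, ran from 6.23 to 36.5 RPKM under vehicle (median 16.8) and from 3.11 to 15.5 RPKM after 1,25D (median 7.77), and was the 1 call in the list of 30 interferon response genes (log2 -1.15, SE 0.29, adjusted p = 0.0448). That call was lost in 15 of 24 such fits, at most 0.0944 without normal 1,25D replicate 2. The interferon list itself had a median of 0.23 (0.16 after quantile normalization). Of its 30 members 21 had a fold change above 0, where 65.8% of all genes did. Casp6, a caspase, had a log2 fold change of -0.43, with its call lost in 16 of 24 fits, at most 0.0858 without normal 1,25D replicate 6. The other named falls were those of Cabc1, of the coenzyme Q pathway (-0.68), Fbxo24, an F-box protein (-0.55), and Chdh, choline dehydrogenase (-0.37), where Cabc1 and Chdh were not called when the highest entry per symbol was used (adjusted p = 0.352 and 0.963). The predicted genes Gm8979 and Gm8989, each at -1.07, had nearly the same values and may be near-identical copies. Their calls were lost without normal 1,25D replicate 2 (0.0533 and 0.0524), and for Gm8979 in 1 further such fit.

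On either diet by itself the called genes pointed the same way: all 212 that rose had a fold change above 0 on both, and all 18 that fell one below 0 on both. This count rests on the fit that chose them, and most single calls were lost on the rescue diet by itself. With the rescue diet libraries alone, 69 of the 76 tracked genes called over both diets were not called, among them Trpv6 (adjusted p = 0.273), Atp2b1 (0.2) and Cyp2b10 (0.86). With the normal diet libraries alone, 26 of the 76 were not called. Trpv6 (limma adjusted p = 9.22e-05), Atp2b1 (3.57e-05) and Cyp2b10 (0.000315) were called there. The genes that rose had a median log2 fold change of 0.85 on the normal diet and 0.49 on the rescue diet, and the 18 that fell -0.60 and -0.61, beside 0.05 and 0.06 over all genes. The difference between the diets was tested gene by gene. At an unadjusted p under 0.05, 62 of the 230 genes differed, and all 62 had the larger effect on the normal diet, where 1371 of all genes tested did so (6.85%), 1118 of them with the higher log2 fold change on the normal diet. By limma none of the 230 differed after adjustment over all genes. The count was 39 after quantile normalization, with 37 larger on the normal diet, and ran from 47 to 75 without 1 library, lowest without rescue 1,25D replicate 5.

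Differences for single genes follow as the effect on the rescue diet minus that on the normal diet. Cyp24a1 had one of -0.14 (95% interval -1.41 to 1.14), Pdlim2 one of -0.25 (-1.18 to 0.69), and Pgap1 one of -0.12 (-0.57 to 0.34). For S100g it was -0.80 (-2.54 to 0.95) and for Trpv6 -0.96 (-2.27 to 0.35), intervals that allow both no difference and a large one. Atp2b1 differed by -0.92 (-1.57 to -0.27), Slc37a2 by -1.19 (-2.05 to -0.33), Akp3 by -1.80 (-3.19 to -0.42) and Cyp2b10 by -2.08 (-3.73 to -0.43). Their unadjusted p-values in the limma fit were 0.00756, 0.00871, 0.0129 and 0.0156. Slc5a4a, a sugar transporter relative, and Lct, lactase, were not called over both diets, at log2 fold changes of 1.52 and 1.37, and had 2.96 and 3.25 on the normal beside 0.07 and -0.50 on the rescue diet. Their differences of -2.88 and -3.76 had unadjusted p-values of 5.68e-05 and 0.000862 in the limma fit, and neither passed adjustment over all genes. The diets differ in calcium, phosphorus and lactose at once, and these cannot be told apart.

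**Figure D4:**
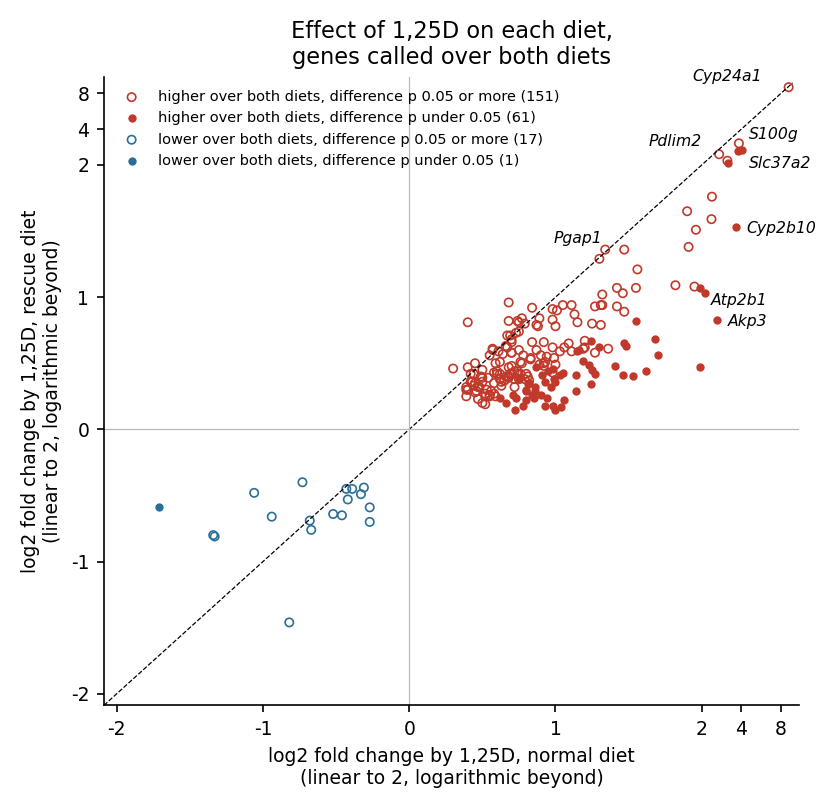
Each point is 1 of the 230 genes called over both diets, by its log2 fold change after 1,25D on the normal (x axis) and the rescue diet (y axis), both axes linear up to 2 and logarithmic beyond, with the dashed line at equal effects. Filled points mark the 62 genes whose effects differed at an unadjusted p under 0.05, and all of them lie on the side of the larger effect on the normal diet, while Cyp24a1, Pdlim2 and Pgap1 lie close to the line.

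Lists of digestive and absorptive genes had higher medians on the normal than on the rescue diet and few calls over both, and the difference of the medians was not tested. The median log2 fold change of the 12 small intestinal enterocyte markers was 0.34 over both diets, 1.19 on the normal diet and -0.49 on the rescue diet, with Alpi the 1 call. Summed over the markers, the level ran from 2448 to 5917 RPKM in normal vehicle and from 6503 to 12530 RPKM in normal 1,25D libraries, which did not overlap. On the rescue diet it ran from 2328 to 11400 under vehicle and from 1781 to 9095 RPKM after 1,25D, and the part of these markers in the difference between diets was not tested. In whole duodenum fewer cells of a type and less RNA per cell cannot be told apart. A fit with the mean of these markers as a covariate, added after the data were seen, gave 220 genes higher and 22 lower, with log2 fold changes of 8.95 for Cyp24a1, 3.14 for S100g and 1.29 for Atp2b1. Carbohydrate genes (0.50 and -0.33 on the normal and rescue diet), lipid genes (0.52 and -0.30), peptide uptake genes (0.46 and -0.22) and brush border genes (0.56 and -0.15) had medians of opposite sign by diet. Zinc and manganese genes (0.09 and 0.14) and sterol genes (0.36 and 0.21) did not.

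**Figure D5:**
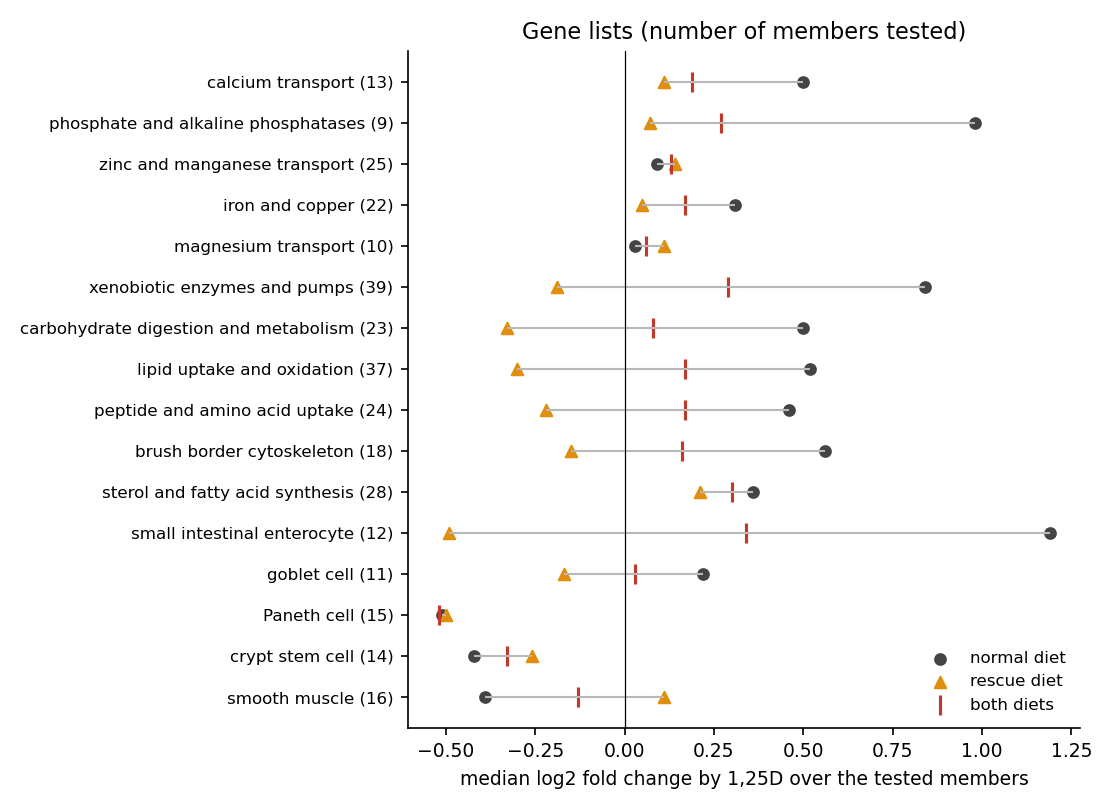
Median log2 fold change after 1,25D over the tested members of 16 gene lists (number in brackets), with circles for the normal diet, triangles for the rescue diet and red bars for both. Lists of enterocyte, xenobiotic and nutrient genes lie above 0 on the normal and below 0 on the rescue diet, and the Paneth and crypt stem cell lists lie below 0 on both.

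Crypt markers lay lower after 1,25D on both diets, with no fall that passed the test. Of 15 Paneth cell markers, 14 had a fold change below 0, 10 had an unadjusted p under 0.05 and were lower (2.32% of all genes), and the median was -0.52 over both diets, -0.51 on the normal diet and -0.50 on the rescue diet (-0.42 over both after quantile normalization). Most of these are defensins, a family of similar copies, so the members are not independent measurements, and how reads were assigned among them was not examined. The markers summed to between 7991 and 32740 RPKM under vehicle (median 20140) and between 8398 and 19460 RPKM after 1,25D (median 13020), ranges that overlap. Of 14 crypt stem cell markers 12 had a fold change below 0 and 6 an unadjusted p under 0.05 in that direction, at a median of -0.33 (-0.38 after quantile normalization). Lgr5, the receptor that marks the stem cells, moved from a median of 1.62 to one of 1.12 RPKM (log2 -0.56, SE 0.16, adjusted p = 0.0805), and Ascl2, a stem cell factor, from 1.67 to 0.883 RPKM (log2 -0.93 with an SE of 0.25, adjusted p = 0.0672). Olfm4, the most abundant of the 3, had a log2 fold change of -0.52 (SE 0.19) at an adjusted p of 0.272. After quantile normalization Lgr5 (adjusted p = 0.0247) and Ascl2 (0.03) were called. Lgr5 was also called without rescue 1,25D replicate 5 (0.0206), and Ascl2 in 3 of 24 such fits, with 0.0199 without rescue vehicle replicate 1. Msi1, on the same list, was called higher (log2 0.56, adjusted p = 0.0489) at at most 1.54 RPKM in every library, a call lost in 19 of 24 fits without 1 library, at most 0.105 without normal 1,25D replicate 3, and after quantile normalization (0.273).

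Markers of other cell types were read beside these results. The 29 exocrine pancreas genes had a median log2 fold change of -1.71, made of -3.27 on the normal diet and -0.19 on the rescue diet, with no call. Of these genes 3 had an unadjusted p under 0.05 and were lower, as were 2.32% of all genes. Their sum ran from 3018 to 98250 RPKM in normal vehicle and from 926 to 20870 RPKM in normal 1,25D libraries. With the pancreas score as a covariate 149 genes were called, 132 higher and 17 lower, of which 144 were among the 230. Cyp24a1 then had a log2 fold change of 8.93, S100g 3.30, Trpv6 2.32 and Slc37a2 3.15. The 16 smooth muscle genes had a median of -0.13 and the 11 goblet cell genes one of 0.03, with no calls and 0 unadjusted p-values under 0.05. Of all genes, 7.28% had such a p and were higher, and 2.32% had one and were lower. In the list of 7 tested B and plasma cell genes, Sdc1, a proteoglycan that epithelial cells also make, rose (log2 0.61, SE 0.12, adjusted p = 0.00514), and Cd79b, of the B cell receptor, too (log2 0.83, SE 0.20, adjusted p = 0.0324). The call of Cd79b was lost in 10 of 24 fits without 1 library, at most 0.0728 without normal 1,25D replicate 2.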

How the data were processed

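The 24 duodenal libraries were directional and made after removal of ribosomal RNA, per the labels' protocols. The deposited values are RPKM per gene entry, 1 table per library. The submitters' processing notes name TopHat and the mm9 build, with no version, quantifier or annotation given in the sources used here. Each table held 30795 entries for 25410 symbols, and entries sharing a symbol (3470 symbols) were summed. No coordinates of the files were used. RPKM keeps no absolute depth, so counting error could not be computed, and relative depth spanned 2.58-fold.

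From the deposited RPKM, log2(RPKM + 0.5) was fitted with limma 3.58.1 (R 4.3.3), trended variance, injection and diet as terms and 21 residual degrees of freedom, in 20006 genes with 0.5 RPKM or more in at least 6 libraries, with Benjamini-Hochberg adjustment (two-sided). A fit with 1 mean per group gave the effect on each diet and its difference. Figures and tables used Python 3.11.15. On simulated data with 200 of 20006 genes changed, the fit recovered 40.3% of changes of 0.5, 88.1% of 1 and 97.0% of 2 on the log2 scale, and called 9 unchanged genes. The changed genes had a mean of 1 RPKM or more, and errors were normal and independent with 1 spread per gene. Outlying libraries and correlation between genes were not simulated, so these rates need not hold for the real data.

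Genes named in the text were taken from the best known hormone targets, the 15 called genes with the largest change and the 8 with the highest mean in each direction with 1 RPKM or more (predicted, provisional and small RNA symbols left out), from every list the 4 members or fewer with the lowest p, and the 8 per direction with the smallest p among genes called over both diets but on neither diet in the fit with 1 mean per group. The genes whose sides did not overlap, Ereg, Slc30a9, Slc39a4, Mt1, Mt2, the markers Apoa4, Fabp1 and Sis, and the predicted and provisional genes were named after their values were seen. The comparison, the gene lists and the tests were chosen with earlier results of these data known. 1 gene that the naming rule gives is not reported here. Replicate numbers were not treated as pairs in the main fit. Alternatives changed pseudocount, filter, scaling, weights, model terms, threshold and libraries. Promoters came from a RefSeq table (GRCm38.p6), which was searched for 4 half-sites.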

Additional observations from a re-analysis of the deposited data

Results flagged for a closer look

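Among 368 sets of 6 libraries, 1 gene in 1 group each, 25 (6.8%) held a library whose gap to its nearest neighbour took up more of the group's range than Dixon's 95% limit allows, where chance alone gives about 1 in 20. These 25 values came from 14 libraries, and 7 of the values from normal vehicle replicate 6, the library rich in pancreas transcripts.

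In normal vehicle replicate 6 the lowest value of the group was 10.42 RPKM for Slc30a1 (next 15.21), 10.6 for Insig2 (16.68), 0.927 for Lrrc26 (2.916), 24.25 for Chdh (35.34), 5.71 for Junb (9.73), 20.46 for Suz12 (43.45) and 11.21 for Arfgef2 (15.07). Normal vehicle replicate 1 was highest for Pdlim2 at 2.552 RPKM (next 1.38) and normal vehicle replicate 2 lowest for Gdpd2 at 0.748 RPKM (1.784).

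Rescue 1,25D replicate 5 was lowest for both alkaline phosphatases, at 160.5 RPKM for Akp3 (next 502.1) and 148.7 RPKM for Alpi (336). Rescue 1,25D replicate 6 was lowest for Slc39a10 at 3.686 RPKM (6.789) and for Cd79b at 0.564 RPKM (1.645). Rescue 1,25D replicate 4 was highest for Wfdc16 at 6.469 RPKM (2.389) and for Mctp2 at 9.717 RPKM (5.747).

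Among rescue vehicle libraries, replicate 6 was lowest for Slc30a2 at 1.921 RPKM (next 5.082) and Idh1 at 92.78 RPKM (158.2) and highest for Lgr5 at 3.146 RPKM (1.879). Replicate 5 was highest for Trpv6 at 0.529 RPKM (0.16), replicate 4 highest for Gstm3 at 19.37 RPKM (12.49) and replicate 3 lowest for Baiap2l2 at 5.802 RPKM (9.388).

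In the normal 1,25D group, replicate 5 was highest for Pgap1 at 17.29 RPKM (next 12.75), replicate 6 highest for Cebpd at 32.72 RPKM (19.39), replicate 3 highest for Ate1 at 39.02 RPKM (32.23) and replicate 1 lowest for Ereg at 3.169 RPKM (11.71). Sides of Pdlim2, Pgap1, Suz12, Slc30a1, Mctp2, Ate1 and Arfgef2 did not overlap with these libraries included.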

How the results depend on the processing

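Counts of called genes depended on the settings. Over both diets 230 genes were called, 212 higher and 18 lower. The total was 350 after quantile normalization, 403 with array weights, 149 with a pancreas covariate, 123 at an adjusted p under 0.01 and 347 at one under 0.1, and 433 with the normal diet alone and 11 with the rescue diet alone. Of these, 119 were higher at 0.01, 132 with the pancreas covariate, 419 on the normal diet alone and 11 on the rescue diet alone. Lower genes numbered 127 after quantile normalization, 112 after median-of-ratios scaling, 102 with array weights, 4 at 0.01, 40 at 0.1, 83 without the pair of normal vehicle replicate 6 and rescue 1,25D replicate 4, and 0 by limma on the rescue diet alone, with 459 at an unadjusted p under 0.05. Without 1 library the total ran from 180 to 333, the higher genes from 167 to 301 and the lower genes from 10 (without normal 1,25D replicate 2) to 99 (without normal vehicle replicate 6). The causes were not tested, except that another threshold changes the call by construction. The 62 called genes with a difference between diets became 39 after quantile normalization and 47 to 75 without 1 library.

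No pairing by replicate number was seen, though these correlations cannot exclude one. Over 36 same-numbered pairs of libraries from different groups, deviations from group means correlated between -0.436 and 0.478 (median 0.002), and 13 pairs exceeded 0.1. Over 180 pairs with different numbers the correlations ran from -0.761 to 0.716 (median 0.020), and 60 pairs exceeded 0.1. A fit with the replicate number as a block called 211 genes, 192 higher and 19 lower.

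Of the 92 genes tracked through 45 alternatives, 76 were called. Their 3416 values under alternatives included 3047 that kept direction and call, 369 that lost the call (69 on the rescue diet alone) and 0 that changed direction, and 62 of the 76 were called without any 1 library. Only uncalled genes changed sign: Vdr (-0.06) to 0.143 on the normal diet alone and 0.001 without rescue vehicle replicate 1 (-0.142 to 0.001 without 1 library), Rxra (-0.12) to 0.048 on the normal diet alone, and Lct (1.37) to -0.50 on the rescue diet alone. Absolute depth is unknown, so low genes such as Trpv6 under vehicle carry a counting error that could not be given. The effects over both diets and by diet come from the same 24 libraries.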
